A study of Mus musculus with 14 samples.

Results

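Acetylation of histone H3 at lysine 27 (H3AcK27) was compared between 3T3-L1 adipocytes exposed for 1 h to TNFα alone and to TNFα together with forskolin (FSK, 10 µM). The members are the regions in the deposited H3AcK27 list of each treatment, 49754 for TNFα and 42227 for the combination, or 91981 of the 243429 peaks and regions in the 12 lists of the study. Regions were matched by an overlap of at least 1 bp, and their width, tags, promoter or distal position and nearest genes were compared. The study profiled the CREB coactivator CRTC2, NF-κB p65 and H3AcK27 in untreated cells and in cells given FSK, TNFα or both, with 1 library for each combination. It asked how cAMP and TNFα signaling meet at chemokine genes in fat cells. No difference between treatments therefore has a replicate check, no p-value was computed, and all intervals cover counting error only.

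The 3T3-L1 line consists of mouse preadipocytes that can be induced to become fat cells, and the cells were used after 4 days of differentiation. No allele or transgene was introduced in any group, and every treated group was exposed for 1 h. The control group was untreated. The untreated and TNFα libraries were scored by the authors against an input of untreated cells, whereas the FSK and the FSK and TNFα libraries were scored against an input of FSK-treated cells. Exposure to FSK and the choice of input thus cannot be told apart.

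H3AcK27 is laid down largely by the acetyltransferases p300 and CBP and marks active promoters and enhancers. FSK activates adenylyl cyclase, and the resulting cAMP signal leads protein kinase A to phosphorylate CREB and to inhibit the salt-inducible kinases, which releases CRTC2 into the nucleus, where it binds CREB at cAMP response elements (CREs). TNFα acts through NF-κB, whose p65 subunit moves to the nucleus when its inhibitor IκBα is degraded.

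The labelled cell type was checked against promoter regions of marker genes, where a promoter spanned 1000 bp before and 100 bp after a protein-coding start site. Of 8 adipocyte markers, Pparg, Fabp4, Lpl and Lipe had a promoter region in both lists, whereas Cebpa, Adipoq, Plin1 and Cidec had none in either list. Of 5 preadipocyte markers, Pdgfra, Col1a1, Col3a1 and Thy1 had a promoter region in both lists with at least 20 normalized tags (tags per 10000000 tags of a library). Of 8 markers of blood, endothelial and epithelial cells, 1 (the macrophage receptor gene Csf1r) passed in both lists, and 5 had no region. The lists thus carry acetylation of collagen and stromal genes beside that of part of the adipocyte program, and the part that incomplete differentiation takes in the values below was not tested.

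The sequences below show a feature that many of the most increased loci share, the CREB half-site TGACG. Among the 15 loci with the largest increases described below, 14 were searched, all but Crem, for which no sequence was read and whose 3 CRTC2 peaks are not in the count. They held 14 CRTC2 peaks with FSK and TNFα, and 12 of these peaks contained TGACG on either strand. The share was 22.0% of all 14171 CRTC2 peaks of that treatment, and 45.1% of the 692 in all loci at least 2-fold higher. The loci were chosen by their H3AcK27 ratio and not by CRTC2, and the 6 peaks shown are examples picked among them, after the sequences were seen, that carry the half-site outside exons. Reference sequence of GRCm38 is printed from the plus strand for the CRTC2 peaks at 2 promoters (Nr4a1 and Pmvk, with the exonic bases of Nr4a1 left out) and at 4 distal loci. Capitals mark TGACG or its reverse complement CGTCA, the full palindromic CRE TGACGTCA, and the AP-1 site TGACTCA or its reverse complement TGAGTCA. A full CRE contains 2 overlapping half-sites.
Nr4a1 promoter, chr15:101266744-101266845: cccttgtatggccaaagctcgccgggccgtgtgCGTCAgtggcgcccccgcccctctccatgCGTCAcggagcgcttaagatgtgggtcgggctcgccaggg
Pmvk, within its promoter region, chr3:89458736-89458898: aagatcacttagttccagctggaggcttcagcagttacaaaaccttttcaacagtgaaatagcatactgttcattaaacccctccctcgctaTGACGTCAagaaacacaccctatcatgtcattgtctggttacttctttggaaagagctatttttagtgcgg
Distal locus nearest Vapb, chr2:173790425-173790587: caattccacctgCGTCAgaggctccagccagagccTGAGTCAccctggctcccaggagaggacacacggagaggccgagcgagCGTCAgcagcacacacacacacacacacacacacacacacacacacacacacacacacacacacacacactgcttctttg
Eif4h intron, chr5:134629611-134629773: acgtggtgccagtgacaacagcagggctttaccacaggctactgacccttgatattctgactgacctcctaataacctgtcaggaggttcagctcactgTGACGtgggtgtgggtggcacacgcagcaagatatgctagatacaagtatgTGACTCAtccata
Pde4d intron, chr13:109881271-109881433: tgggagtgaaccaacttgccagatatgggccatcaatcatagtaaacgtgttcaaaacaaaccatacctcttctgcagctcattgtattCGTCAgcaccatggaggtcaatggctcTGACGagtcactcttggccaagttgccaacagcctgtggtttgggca
Distal locus nearest Slc1a3, chr15:8806348-8806510: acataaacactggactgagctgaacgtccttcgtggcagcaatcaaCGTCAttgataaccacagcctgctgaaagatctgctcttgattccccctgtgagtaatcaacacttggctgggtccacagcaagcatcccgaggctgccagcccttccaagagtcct

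The peak at Pmvk held the full palindrome, 1 of 3 among the 14 peaks, and those at Vapb and Eif4h held an AP-1 site beside their half-sites. A match is a match of letters only and does not show that a protein bound there. CRTC2 peaks at these 6 places were listed with FSK and with FSK and TNFα. With TNFα alone none of the 6 places had a CRTC2 peak, although a weaker peak was listed elsewhere in the Pmvk locus (11 normalized tags, compared with 31.1 at the printed place with both agents). At Nr4a1 the CRTC2 peak held 104 normalized tags with FSK and 62.9 with both agents.

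The library with TNFα held 27966129 tags, of which 66.7% lay in listed regions, and the library with FSK and TNFα held 25729060 tags, of which 50.9% did. The listed regions covered 110 Mb with TNFα and 82.9 Mb with the combination. Their median width was 1494 bp with TNFα and 1247 bp with both agents, and 18.4% and 23.9% of regions had the smallest possible width of 500 bp. A median region held 43.6 and 36.1 normalized tags and was enriched 6.74-fold and 6.08-fold over its input. A similar gap separated the control library, with 64.9% of tags in regions, from the FSK library of 9832884 tags, with 48.5%. The FSK libraries therefore had less enrichment with and without TNFα, and the part of immunoprecipitation efficiency in the comparison was not tested.

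Most regions of the FSK and TNFα list were already listed with TNFα alone. Of its 42227 regions, 34144 (80.9%, 95% Wilson interval 80.5–81.2%) overlapped a TNFα region. In the opposite direction, 31650 of the 49754 TNFα regions (63.6%, 63.2–64.0%) overlapped a region listed with both agents. With lists of equal size, made of the 42227 best-scored regions of each, the shares were 73.2% and 67.6%. Overlap depended on width. Regions over 2 kb were shared in 99.4% of cases from the FSK and TNFα list and in 93.4% from the TNFα list, whereas 500-bp regions were shared in 50.1% and 20.3%.

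At the level of genes the lists differed less. Genes with a promoter region numbered 11215 with TNFα and 10713 with the combination, of which 10517 were common to both, which is 93.8% and 98.2% of each list. The genes nearest to any region numbered 13669 and 13034, of which 12496 were common (91.4% and 95.9%). Promoter regions made up 21.7% of the TNFα list and 24.2% of the FSK and TNFα list.

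Overlapping regions of both lists were merged into 56950 loci. Of these, 30763 contained regions of both lists, 8083 were listed with FSK and TNFα only, and 18104 with TNFα only. Loci of only 1 list were mostly short and weak. They had a median span of 500 bp and 8.94 normalized tags with both agents, and 656 bp and 12.5 tags with TNFα. Promoters were rare among them, at 3.24% (2.88–3.65%) of the FSK and TNFα loci and 4.24% (3.95–4.54%) of the TNFα loci, compared with 32.6% of shared loci. The order of the first pair of shares turned with equal-sized lists (8.50% and 4.55%).

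Of the loci listed with TNFα only, 64.1% (63.4–64.8%) were also listed in control cells and 21.2% with FSK alone. Loci listed with FSK and TNFα only were also listed with FSK alone in 27.1% (26.1–28.1%) and in control cells in 29.5% (28.5–30.5%). These shares were below those of the lists as a whole, since 82.6% of all TNFα regions overlapped a control region, and 69.4% of all regions of the combination overlapped an FSK region and 80.8% a control region. The FSK list came from the shallowest library and is the shortest of the 4, at 38684 regions.

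The strongest loci listed with TNFα only lay in places with a high input. The 5 TNFα-only loci with most tags, nearest to Slc35e3, Rap1b (2 loci), Otogl and Ppp1r12a, were all on chromosome 10. They held 1772 to 4416 normalized tags, over 330 to 625 normalized tags in the input of untreated cells. The 5 strongest loci listed with FSK and TNFα only were nearest to Tnfsf15, Plac8, Frs2, 1600014C10Rik and Selplg. They held 140 to 502 tags over 19.9 to 110 input tags, so not all of them had a high input. Median input tags at shared loci that changed less than 2-fold were 15.2 with TNFα and 16.6 with both agents. All 5 TNFα-only loci also had a region in control cells and 4 of them had one with FSK. The authors listed a region only where it exceeded its input 4-fold.

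Shared loci were compared by the normalized tags summed over the listed regions of each library, at the 27650 loci with at least 20 normalized tags in the higher library. The median ratio of FSK and TNFα to TNFα was 0.773 as deposited, and all ratios below were divided by this median and are called adjusted ratios. By this measure 1431 loci (5.18%) were at least 2-fold higher with FSK and TNFα and 3845 (13.9%) at least 2-fold lower. As deposited, without this adjustment, the numbers were 681 and 6273. With a running median over loci of similar level, an alternative chosen after the data were seen, they were 1873 and 2690. The lower loci outnumbered the higher ones under each of these scalings.

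**Figure D1:**
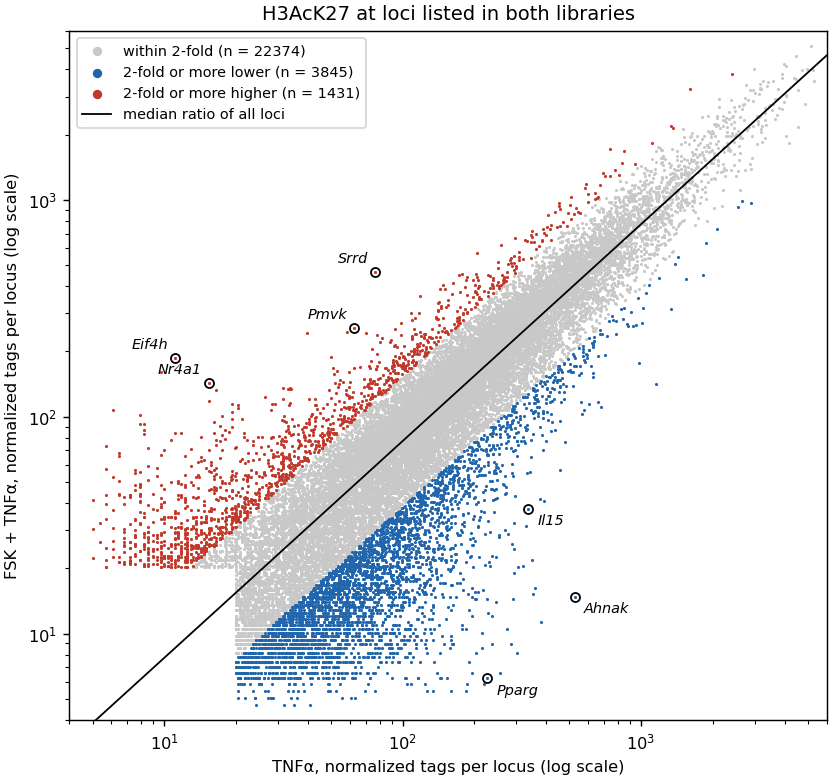
Each point is 1 of 27650 loci listed in both libraries, placed by its normalized tags with TNFα (x axis) and with FSK and TNFα (y axis), both on a log scale. The line is the median ratio, red points are the 1431 loci at least 2-fold above it, blue points the 3845 at least 2-fold below it, and circles mark loci described in the text.

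In the plot of levels, the blue points form a broad cloud below the line. A locus with fewer than 20 normalized tags with TNFα entered only through a higher value with the combination, and the reverse, so the red points at the far left and the blue points at the bottom follow in part from this minimum, and no share of changed loci is given by level.

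These ratios measure listed tags, which change with the width of a region as well as with the tags in it. At higher loci the median log2 ratio of listed width was 0.74 and that of tags per kb was 0.35, compared with -0.26 and -0.12 over all shared loci. At lower loci the medians were -1.46 for width and -0.54 for tags per kb. Relative to their own median, tags per kb lay on the same side as the tags at 86.9% of higher loci and 84.3% of lower loci, but passed 2-fold at only 111 and 333 of them. At 40.6% of the lower loci, all that remained listed with FSK and TNFα was a single 500-bp region, and at 19.2% of the higher loci a single 500-bp region was all that was listed with TNFα. Tags outside listed regions are not in the lists, so the large ratios below compare listed extents and can exceed the difference in acetylation itself. As each value is an average over the culture, fewer acetylated cells and less acetylation per cell cannot be told apart.

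Higher and lower loci differed in position. Promoters made up 17.96% (16.1–20.03%) of higher loci and 6.14% (5.42–6.94%) of lower loci, compared with 41.8% (41.2–42.5%) of loci that stayed within 2-fold. Of 9851 promoter loci, 2.61% were higher and 2.40% lower. Of 17799 distal loci, 6.60% were higher and 20.3% lower. The median log2 adjusted ratio was 0.20 at promoters and -0.23 at distal loci, so the loss of listed tags with FSK was mainly distal.

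The 10 promoter loci with the highest ratios, among 7700 with at least 100 normalized tags, included classic cAMP targets and genes with other roles. At the promoter of Nr4a1 (ENSMUSG00000023034), an orphan nuclear receptor induced by cAMP, the locus at chr15:101265927-101269956 held 15.4 normalized tags with TNFα and 143 with the combination. In control cells it had no listed region, and with FSK alone it held 137 tags. The adjusted ratio was 12.01 (95% exact interval of the tag ratio 8.76–16.9). The listed width was 500 bp with TNFα and 4029 bp with both agents, and tags per kb of listed region were 30.8 and 35.5. The ratio at Nr4a1 thus followed listed width. The values per kb are averages over different bases and do not compare density at the same bases.

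An internal start site of Crem, which encodes a CRE-binding modulator and has an internal cAMP-inducible promoter for the repressor ICER, had the highest promoter ratio. Its locus on chromosome 18 held 9.65 normalized tags with TNFα and 160 with the combination, and without TNFα 29.7 (control) and 234 (FSK), an adjusted ratio of 21.5 (14.5–33.0). Here tags per kb also differed, at 19.3 with TNFα and 40.9 with both. The main Crem promoter, a separate locus, held 296 and 670 tags with TNFα present and 276 and 737 without it, and its adjusted ratio was 2.93 (2.69–3.18).

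The other promoter loci of this group served varied functions. The locus spanning Srrd and Hps4, the latter encoding a subunit of a complex for lysosome-related organelles, held 76.9 tags with TNFα and 465 with both agents (ratio 7.82, 6.76–9.09). Pmvk, which encodes phosphomevalonate kinase of cholesterol synthesis, held 62.6 and 256 tags (5.30, 4.48–6.30), with 51.6 and 87.8 tags per kb. Arpc3, a subunit of the actin-nucleating Arp2/3 complex, held 147 and 406 tags (3.57, 3.18–4.01). The remaining ratios lay between 3.09 for Abt1 and 4.49 for Arhgap8. Between them were Tinf2 of the telomere-capping complex (3.29), the RNase P subunit gene Pop4 (3.33) and Emd, which encodes the nuclear envelope protein emerin (3.55).

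The 5 distal loci with the highest ratios, among 8109 with at least 100 normalized tags, repeated this pattern. The locus nearest Vapb, which encodes an endoplasmic reticulum membrane protein, lay 51337 bp from its start site at chr2:173788848-173791762. It was not listed in control cells, and held 84.4 tags with FSK, 6.08 with TNFα and 108 with both agents (ratio 22.9, 14.1–39.9). The intron locus of Eif4h, a translation initiation factor gene, at chr5:134628459-134632187 was likewise unlisted in control cells and held 191, 11.1 and 187 tags (21.8, 15.2–32.5). Tags per kb at these loci were 12.2 and 37.0 near Vapb, and 17.0 and 50.1 in Eif4h, for TNFα and for both agents.

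An intron of Pde4d, a cAMP-degrading phosphodiesterase gene, carried the locus chr13:109879913-109882707 with 16.4 tags after TNFα and 133 after the combination, and 26.1 (control) and 192 (FSK) without TNFα (10.5, 7.69–14.6). The promoter locus of Pde4d itself had a ratio of 1.22 (1.04–1.43). The remaining distal loci lay in an intron of Sestd1 (16.7, 10.8–27.2) and 94445 bp from the glutamate transporter gene Slc1a3 (9.89, 7.18–14.0). At all 15 of these promoter and distal loci, both libraries with FSK held more tags than both libraries without it. Each of the 15 had a CRTC2 peak with FSK and 14 had one with FSK and TNFα. None had one in control cells, and 6, all promoters, had one with TNFα. With FSK and with both agents, a CRTC2 peak lay in 59.9% and 65.8% of all 257 higher promoters. The shares were nearly the same, 59.3% and 63.8%, for promoters within 2-fold. At distal loci they were 29.4% and 34.9% of higher loci, and 16.2% and 22.1% of loci within 2-fold.

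The 10 promoter loci with the lowest ratios included genes of secreted and signaling proteins. At Il15, a cytokine gene, the locus chr8:82397962-82404185 held 336 tags after TNFα and 37.7 after the combination, and 254 (control) and 66.1 (FSK) without TNFα (ratio 0.145, 0.116–0.179), and tags per kb were 54.0 with TNFα and 32.3 with both. At Igf2, a growth factor gene whose locus also spans a promoter of Gm49394, the values in the same order were 184, 21.4, 206 and 12.2 tags (0.150, 0.111–0.198). Rarres2, which encodes the adipokine chemerin, held 115 tags after TNFα and 9.72 after the combination, with 136 in control cells and no listed region with FSK alone (0.110, 0.0698–0.165).

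The lowest ratio was at Disp1, needed for release of Hedgehog proteins (0.0555, 0.0300–0.0943), followed by Atp2a1, a calcium pump gene (0.0714, 0.0448–0.108). Those of Zfp474, Prcd, the sulfotransferase gene Chst3, Tdrkh and the matrix protein gene Edil3 lay between 0.106 and 0.158. All 10 loci held fewer tags in both FSK libraries than in both libraries without FSK. A CRTC2 peak was listed with TNFα at 3 of them (Chst3, Il15 and Edil3), with FSK and TNFα at 1 (Prcd) and with FSK alone at none. The shares in that order were 30.9%, 12.7% and 10.2% of all 236 lower promoters. They were 84.1%, 63.8% and 59.3% of promoters within 2-fold. Il15 also had a p65 peak with TNFα.

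The 5 distal loci with the lowest ratios were each reduced to 500 bp of listed region with FSK and TNFα. The locus 41239 bp from the nearest start site of Pparg, the master regulator of adipogenesis, at chr6:115312550-115319712, held 226 tags after TNFα and 6.22 after the combination, and 287 (control) and 35.6 (FSK) without TNFα (0.0356, 0.0202–0.0583). With TNFα its listed width was 7162 bp. The promoter locus of Pparg was also lower, with 100.1 and 31.1 tags in the presence of TNFα, 191 in control cells and 128 with FSK, and a ratio of 0.402 (0.309–0.517), whereas its tags per kb were 34.1 with TNFα and 31.7 with both agents. Introns of 2310022B05Rik, of the receptor tyrosine kinase gene Mertk and of the scaffold protein gene Ahnak gave ratios of 0.0333, 0.0344 and 0.0362. A locus 353577 bp from Cited2, which encodes a p300- and CBP-binding protein, gave 0.0350. All 5 had fewer tags in both FSK libraries than in both libraries without FSK.

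**Figure D2:**
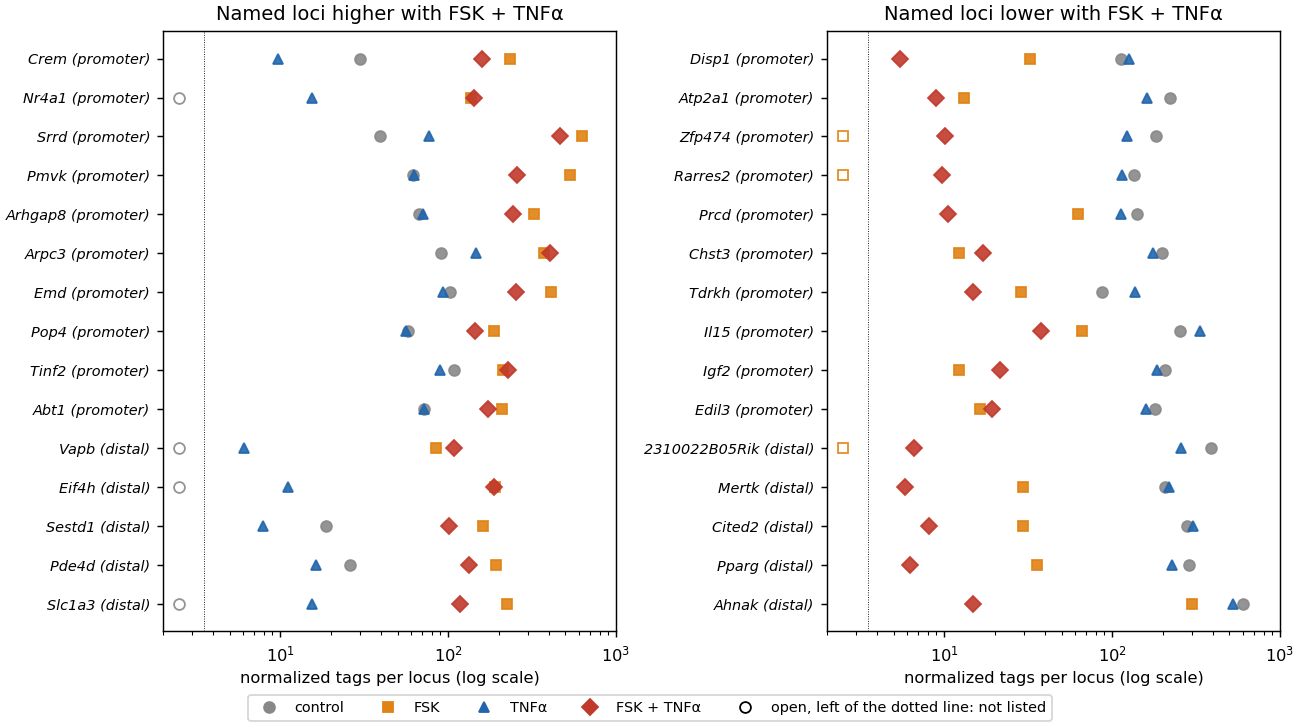
Normalized tags (x axis, log scale) of the 15 promoter and distal loci with the highest ratios (left) and the 15 with the lowest (right) in the 4 H3AcK27 libraries, 1 symbol per library. Open symbols left of the dotted line mark libraries without a listed region; in both panels the 2 libraries with FSK lie on one side and the 2 without FSK on the other.

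The plot of named loci shows that the libraries paired by FSK and not by TNFα at all 30 loci. Since the loci were chosen by the ratio of the TNFα libraries, the side taken by those 2 libraries is fixed, and only the control and FSK symbols are free to differ. These share an input with the TNFα and the FSK and TNFα libraries, respectively.

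In summed tags, CREB and cAMP response genes had the highest median among the gene lists examined, a rank not held in tags per kb, where the genes the study discusses had a median of 0.33 and the cAMP and SIK list 0.23. Of 31 genes, 27 had a shared promoter locus, and 8 of these were at least 2-fold higher, beside 2.4% of all 10590 genes with a shared promoter locus. None was 2-fold lower, beside 1.63% of all genes. The median log2 adjusted ratio was 0.61, compared with 0.22 over all genes. As deposited the medians were 0.24 and -0.15, and 3 of the 27 genes were 2-fold higher, beside 63 of all 10590. In tags per kb the list stood closer to the rest, with medians of 0.24 and 0.12, and 1 gene past 2-fold beside 53 of 10590. The list was written with earlier results of these data known.

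After Nr4a1, the list was led by Rgs2, a brake on G protein signaling, with 141 tags after TNFα and 335 after the combination, and 279 (control) and 692 (FSK) without TNFα. Its ratio was 3.07 (2.72–3.47), and Rgs2 was the gene of the list that also passed 2-fold in tags per kb, with 25.2 and 53.7. The main Crem promoter came next, followed by the antiproliferative gene Btg2 (124 tags with TNFα and 242 with both agents, 2.52, 2.21–2.88). Pde4b, which degrades cAMP, had a ratio of 2.31 (2.07–2.58), and the insulin receptor substrate gene Irs2 2.23 (2.09–2.38). Nr4a2 and the AP-1 subunit gene Fosb had 2.22 (2.01–2.45) and 2.12 (1.83–2.46).

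The remaining 19 genes of the list were within 2-fold. They ranged from Nr4a3 at 1.90 (1.71–2.10) to the clock-related repressor gene Bhlhe40 at 0.995 (0.942–1.05), the lowest, with Id1 (1.14), Sik1, Pde4d (each 1.22) and Egr2 (1.23) just above. Per1, a clock gene, held 2127 tags with TNFα and 2934 with both agents (1.78, 1.72–1.85). Promoters of Atf3, Areg, Dio2 and Ucp1 had no region in either list.

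**Figure D3:**
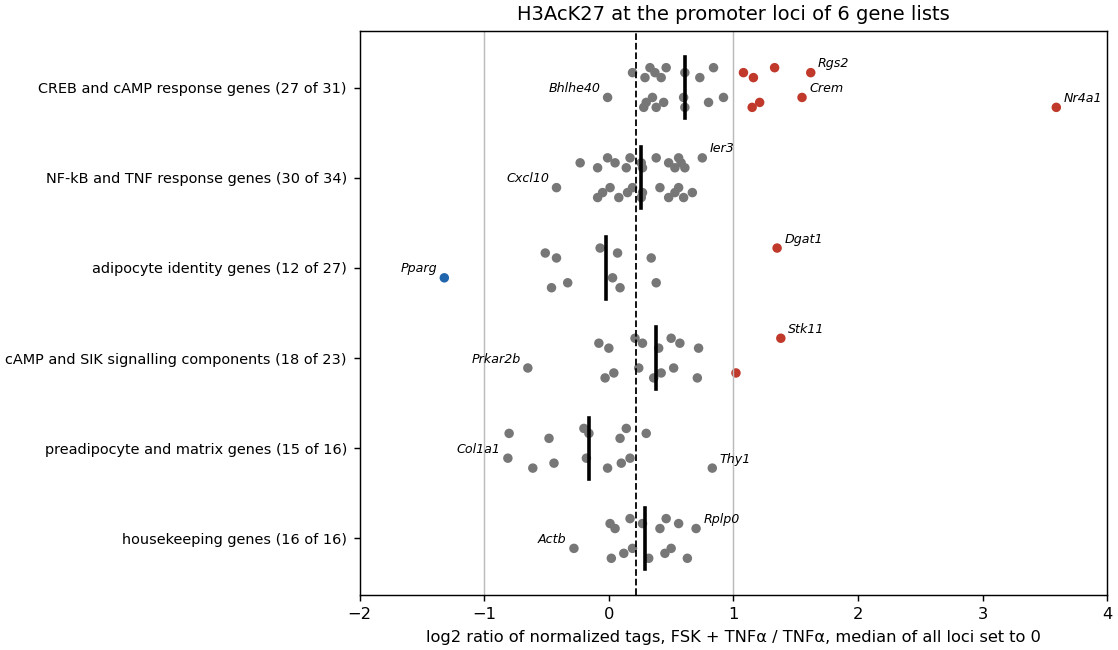
Log2 adjusted ratio (x axis) at the promoter locus of each gene in 6 lists, with the number of genes with a shared locus and the list size in brackets. Red and blue points are at least 2-fold higher or lower, black bars are list medians and gray lines mark 2-fold. The dashed line is the median of all 10590 genes, of which 2.4% were higher and 1.63% lower. The CREB list has a median of 0.61 and 8 red points, and the NF-κB list a median of 0.26 and none.

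Of 34 NF-κB and TNF response genes, 30 had a shared promoter locus. None was 2-fold higher or lower on addition of FSK, beside 2.4% higher and 1.63% lower among all genes. Their median log2 ratio of 0.26 lay at that of all genes (0.22), and as deposited it was -0.11 beside -0.15. The highest ratios were those of the stress response gene Ier3 at 1.68 (1.58–1.78), the apoptosis inhibitor gene Birc3 at 1.59, the NF-κB subunit gene Relb at 1.53 (1.40–1.68), the mitochondrial superoxide dismutase gene Sod2 at 1.51 (1.43–1.60) and the subunit gene Rel (1.41–1.60). The lowest were those of the interferon-inducible chemokine gene Cxcl10 at 0.746 (0.662–0.839), the acute phase gene Saa3 at 0.851 (0.792–0.914), the transcription factor gene Irf1 at 0.936, the adhesion molecule gene Vcam1 at 0.942 and the macrophage growth factor gene Csf1 at 0.967. With promoters of 2500 bp, 31 genes of the list had a shared locus and 1 was 2-fold higher, beside 271 of all 11050 genes.

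Of the chemokine genes that the study discusses, Cxcl1, Cxcl5 and Ccl2 had a promoter region in all 4 libraries and were within 2-fold between TNFα and the combination, whereas Cxcl2 had none with either treatment. Cxcl1, a neutrophil chemoattractant, held 511 tags after TNFα and 416 after the combination, and 343 (control) and 437 (FSK) without TNFα (1.05, 0.973–1.14), and its listed width was 7602 bp with TNFα and 5124 bp with both. Cxcl5 in the same order held 2418, 2436, 1836 and 2544 tags (1.30, 1.26–1.35). The monocyte chemoattractant Ccl2 held 1723, 1504, 1124 and 798 tags (1.13, 1.08–1.18). For Cxcl1 and Ccl2, TNFα alone gave the highest of the 4 summed tag values as deposited. Tags per kb with TNFα and with both agents were 67.2 and 81.2 for Cxcl1, 140 and 134 for Cxcl5, and 147 and 129 for Ccl2.

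Il6 held 823 tags after TNFα and 939 after the combination, and 552 (control) and 1042 (FSK) without TNFα (1.48, 1.39–1.56). The cytokine gene Lif held 997, 1110, 493 and 750 tags (1.44, 1.37–1.52). Sik2, a salt-inducible kinase that retains CRTCs in the cytoplasm, held 162, 204, 152 and 199 tags (1.63, 1.44–1.86). No promoter region, as defined above, was listed for Cxcl2, Tnf, Il1b or Cebpa with either treatment. With promoters of 2500 bp, 8 of the 11 genes the study discusses had a shared locus, in place of 7. Of these, 2 were at least 2-fold higher, in place of 1, beside 271 of all 11050 genes. As deposited, the ratio was 0.815 for Cxcl1, 0.873 for Ccl2, 1.01 for Cxcl5, 1.14 for Il6, 1.11 for Lif and 1.26 for Sik2, so that the side of 1 on which Cxcl1 and Ccl2 lie depends on the scaling.

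Among 23 components of cAMP and SIK signaling, 18 had a shared promoter locus, 2 were higher and none lower, beside 2.4% and 1.63% of all genes. The median log2 ratio was 0.38 (as deposited 0.01, with 1 higher and 1 lower). Stk11, which encodes the kinase LKB1 that activates the SIKs, held 326 tags with TNFα and 653 with both agents (2.59, 2.39–2.82), and Sik3 held 271 and 424 (2.02, 1.84–2.22). Creb1 (1.65, 1.52–1.78), Sik2 and the protein kinase A regulatory subunit gene Prkar1a (1.48, 1.37–1.60) followed. The lowest value was that of Prkar2b, the regulatory subunit abundant in adipocytes, with 653 tags after TNFα and 322 after the combination, and 539 (control) and 217 (FSK) without TNFα (0.639, 0.588–0.694). Above Prkar2b lay the acetyltransferase gene Crebbp (0.948), Crtc3 (0.981), Pde4a (1.00) and the kinase anchor gene Akap1 (1.03).

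Adipocyte identity genes were thinly represented. Of 27 genes, 12 had a shared promoter locus, 1 was higher and 1, Pparg, was lower, beside 2.4% and 1.63% of all genes. The median log2 ratio was -0.02 (as deposited -0.39, with none higher). The higher gene was Dgat1, which catalyzes the last step of triglyceride synthesis, with 458 tags after TNFα and 906 after the combination, and 486 (control) and 847 (FSK) without TNFα (2.56, 2.39–2.74). Scd1 (1.30) and Fasn (1.27) of lipid synthesis followed. Below 1 lay Plin4 of the lipid droplet coat (0.702, 0.620–0.794), the fatty acid-binding protein gene Fabp4 (0.729, 0.620–0.856), lipoprotein lipase Lpl (0.749, 0.654–0.856) and the triglyceride lipase gene Pnpla2 (0.797, 0.713–0.891). Fabp5 had a promoter region with TNFα only and Agpat2 with both agents only, Klf15 was under the minimum, and 12 genes had none.

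Of 16 preadipocyte and matrix genes, 15 had a shared promoter locus and none passed 2-fold, beside 2.4% higher and 1.63% lower among all genes. As deposited, Col1a1 and Postn were 2-fold lower, as were 398 of all 10590 genes. The median log2 ratio of the list was -0.16 (as deposited -0.53), below that of all genes by 0.38, a distance that is the same under both scalings by construction. In tags per kb the medians were -0.01 for the list and 0.12 for all genes. Col1a1, a fibrillar collagen gene, held 714 tags after TNFα and 314 after the combination, and 1108 (control) and 471 (FSK) without TNFα (0.570, 0.525–0.619). Postn (0.573, 0.493–0.664), the proteoglycan gene Bgn (0.655, 0.619–0.693), Col1a2 (0.715, 0.670–0.762) and the collagen cross-linking enzyme gene Lox (0.740, 0.696–0.786) had the next lowest ratios. The highest was Thy1, at 21.8 and 29.9 tags (1.77, 1.25–2.53), followed by Sparc (1.23), Fn1 (1.13), Col5a1 (1.10) and Dcn (1.07).

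All 16 housekeeping genes had a shared promoter locus within 2-fold, beside 2.4% higher and 1.63% lower among all genes. Their median log2 ratio was 0.29 (as deposited -0.08). They ranged from Rplp0 (1.63, 1.46–1.81) and Gapdh (1.55, 1.46–1.64) down to Actb (0.826, 0.784–0.870). Rpl32 (1.47), Tbp (1.41) and Sdha (1.38) were near the top, and Ppia (1.01), B2m (1.04) and Hsp90ab1 (1.08) near the bottom. The NF-κB genes, from 0.746 to 1.68, covered nearly the same range. Of 13 markers of other cell types, Cd68 (0.948) and Csf1r (0.695) had a shared locus.

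Distal loci were counted by their nearest start site. Near CREB and cAMP response genes 11 of 113 distal loci were higher and 10 lower, with a median log2 ratio of 0.21. Near NF-κB and TNF response genes 7 of 70 were higher and 5 lower (median 0.15). Near adipocyte genes 1 of 21 was higher and 6 lower (-0.52), and near preadipocyte and matrix genes 5 of 72 were higher and 15 lower (-0.35). Near components of cAMP and SIK signaling 4 of 49 were higher and 12 lower (-0.18). In the order above, 9.73%, 10%, 4.76%, 6.94% and 8.16% were higher and 8.85%, 7.14%, 28.6%, 20.8% and 24.5% lower. Of all 17799 distal loci, 6.60% were higher and 20.3% lower, with a median of -0.23. The order of the list medians at distal loci was thus not that at promoters. There the cAMP and SIK list did not lie below the NF-κB list, nor the adipocyte list below the matrix list, as they did at distal loci.

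Some genes had several changed loci nearest to them, a list chosen after the values were seen. Of 12 loci nearest Cd93, an endothelial and myeloid receptor gene, 9 were higher, as were 5 of 8 nearest Abhd5, the coactivator of the lipase ATGL, and 5 of 5 nearest Bzw1. Of 24 loci nearest Asap1, 17 were lower, as were 16 of 28 nearest the transcriptional repressor gene Zeb2 and 13 of 20 nearest Cited2, beside 5.18% higher and 13.9% lower among all loci. None of the loci nearest these genes changed 2-fold in the opposite direction.

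CRTC2 peaks, which the choice of H3AcK27 loci did not use, were more frequent in higher than in lower loci. With FSK and TNFα a CRTC2 peak lay in 40.5% (37.9–43.0%) of higher loci, 39.6% (38.9–40.2%) of loci within 2-fold and 5.15% (4.49–5.89%) of lower loci. With TNFα alone the shares were 15.4% (13.7–17.4%), 44.4% (43.7–45.0%) and 8.11% (7.29–9.02%). Over promoter and distal loci together, CRTC2 peaks were thus more frequent with the combination than with TNFα at higher loci, and less frequent in the other 2 classes. At distal higher loci, 69 of 1174 (5.88%, 4.67–7.37%) had a CRTC2 peak with TNFα and 410 (34.9%, 32.3–37.7%) with both agents, compared with 15.8% and 22.1% of distal loci within 2-fold and 6.62% and 4.66% of distal lower loci.

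Promoters of the higher class had CRTC2 peaks with either treatment, at 59.1% with TNFα and 65.8% with both agents, compared with 84.1% and 63.8% for promoters within 2-fold. Per Mb of locus, CRTC2 peaks with both agents numbered 174 in higher loci, 129 in loci within 2-fold and 19.4 in lower loci, the same order as that of the shares. The CRTC2 libraries share their inputs with the H3AcK27 libraries.

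**Figure D4:**
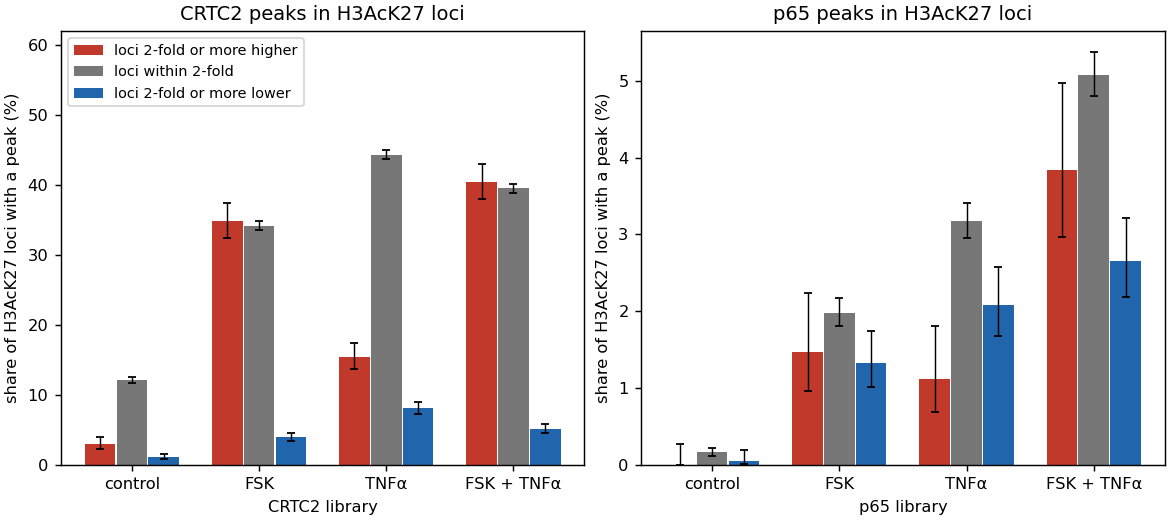
Share of H3AcK27 loci (y axis, %) that contain a CRTC2 peak (left) or a p65 peak (right) in each library of the factor (x axis), for 1431 higher loci (red), 22374 within 2-fold (gray) and 3845 lower (blue). Bars start at 0 and lines are 95% Wilson intervals over loci; the red CRTC2 bar rises from 15.4% with TNFα to 40.5% with the combination, and the 2 panels have different y scales.

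Loci were also sorted by CRTC2 first. Among 2856 loci with a CRTC2 peak with FSK and TNFα but not with TNFα, 14.3% were higher and 5.11% lower, and the median log2 ratio was 0.27. Among 3688 loci with a peak with TNFα but not with both agents, 1.36% were higher and 7.05% lower (median 0.05). Among 6772 loci with a CRTC2 peak in both libraries the median was 0.23, close to that of gained peaks, but 2.53% were higher and 0.768% lower. The 14334 loci without a CRTC2 peak in either library held 802 of the 1431 higher loci, a share of 5.595% beside 5.18% of all loci, and 3387 lower loci (23.6%), and had a median of -0.33.

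p65 peaks were rare in every class. With TNFα they lay in 1.12% (0.689–1.81%) of higher loci, 3.17% (2.95–3.41%) of loci within 2-fold and 2.08% (1.67–2.58%) of lower loci. With FSK and TNFα they lay in 3.84% (2.96–4.97%) of higher loci, 5.08% (4.80–5.38%) of loci within 2-fold and 2.65% (2.19–3.21%) of lower loci. In all 3 classes p65 peaks were more frequent with the combination, with overlapping intervals at lower loci. Over promoter and distal loci together, CRTC2 peaks were more frequent only at higher loci. At distal higher loci the p65 shares were 0.937% with TNFα and 3.92% with both agents. Loci with a p65 peak with FSK and TNFα had a median log2 ratio of 0.10, with 55 higher and 102 lower among 1294. Where a CRTC2 peak was also present, at 799 loci, the median was 0.24, with 42 higher and 15 lower. The p65 shares of the 3 classes at distal loci were 3.92% (2.95–5.19%), 5.67% (5.29–6.08%) and 2.72% (2.23–3.30%) in the same order.

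The CREB half-site followed the same order as the CRTC2 peaks. In windows of 1000 bp at the midpoint of each locus, TGACG on either strand was found in 42.3% (39.7–44.9%) of higher loci, 37.6% (37.0–38.3%) of loci within 2-fold and 24.3% (23.0–25.7%) of lower loci, and in 30.4% of the windows of all 56950 loci. The full CRE was found in 3.21% (2.42–4.26%), 1.81% and 0.546% (0.358–0.834%), and in 1.19% of all windows. GC content, which raises the chance of a CpG-containing motif, had medians of 46.5%, 48.4% and 44.3%.

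Since promoters are rich in CpG, distal loci were taken alone. There TGACG was found in 37.9% (35.2–40.7%) of higher loci, 28.8% (28.0–29.6%) of loci within 2-fold and 24.02% (22.7–25.4%) of lower loci, at median GC contents of 45.8%, 45.4% and 44.2%. The full CRE was found in 2.39%, 0.945% and 0.443%. The AP-1 site TGACTCA, which shares its first 4 bases with the CRE, was found in 45.5% (42.7–48.3%), 44.1% (43.2–44.9%) and 38.2% (36.6–39.8%), and in 37.4% of all distal windows.

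Within CRTC2 peaks, where windows are of equal median width (162 bp), the half-site shares lay further apart. TGACG was present in 45.1% (41.4–48.8%) of 692 CRTC2 peaks in higher loci, 22.4% (21.6–23.2%) of 10789 in loci within 2-fold and 15.8% (11.5–21.5%) of 202 in lower loci. The AP-1 site also differed between these peaks, at 26.6% (23.4–30.004%), 11.6% (10.97–12.2%) and 21.8% (16.6–27.97%) in the same order. The peaks were not split by position, and its part in these shares was not tested. They lay in 410 distal and 169 promoter loci of the higher class, and in 2882 and 5969 within 2-fold. In windows of loci within 2-fold, distal and promoter shares were 44.1% and 13.7% for AP-1, and 28.8% and 49.9% for TGACG. The peaks are those listed with FSK and TNFα, to which the 6 sequences printed above belong.

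The difference on adding FSK to TNFα resembled that of FSK alone against control. At 23694 loci listed in all 4 H3AcK27 libraries, ratios of FSK to control were computed in the same way and adjusted to their own median (a log2 shift of -0.37, compared with -0.32 for the TNFα pair at these loci). The 2 ratios share no H3AcK27 library, but each sets a library scored against the FSK input over one scored against the untreated input, and each has the lower share of tags in regions in its numerator. The FSK library was also shallower than control (9832884 and 27601287 tags). A window needed 9.15 normalized tags to be listed with FSK and 5.07 in control. The part of depth in the ratio of FSK to control was not tested. Of 1018 loci higher with FSK and TNFα, 590 (58.0%) were also at least 2-fold higher in FSK against control, beside 7.1% of all these loci, and 901 (88.5%) lay above the median. Of 2680 lower loci, 1346 (50.2%) were also at least 2-fold lower, beside 12% of all, and 2340 (87.3%) lay below the median.

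Loci that moved in opposite directions were few. Among the 1018 higher loci, 23 were at least 2-fold lower in FSK against control, and among the 2680 lower loci, 56 were at least 2-fold higher. By position, 60.8% of 199 higher promoters and 57.3% of 819 higher distal loci were also at least 2-fold higher with FSK alone. Across the 23694 loci the ratios had a Pearson r of 0.63 and a Spearman coefficient of 0.64, given as a description, since loci are not independent replicates and share libraries, depth and inputs.

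**Figure D5:**
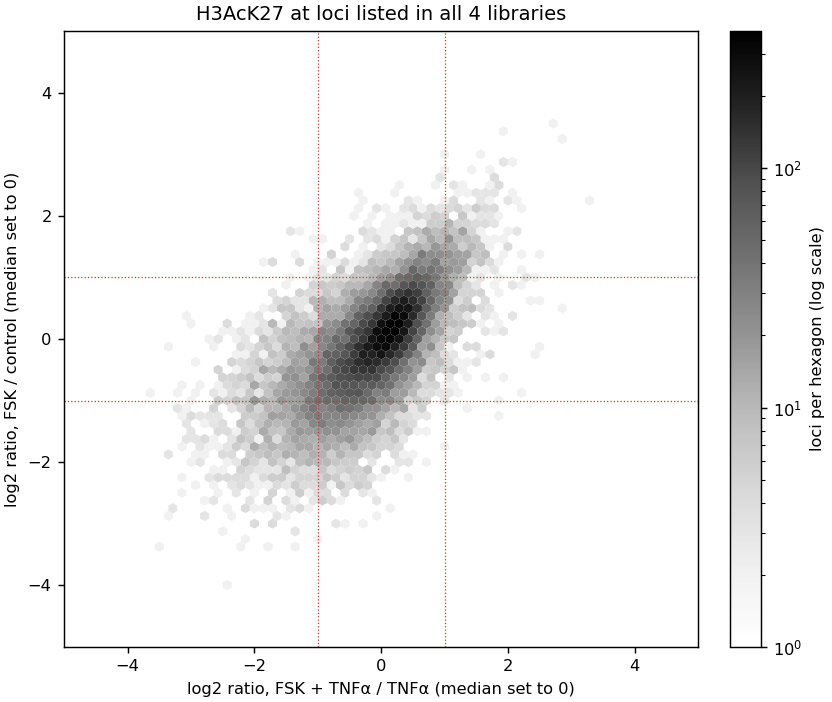
Log2 ratio of normalized tags for FSK and TNFα over TNFα (x axis) and for FSK over control (y axis) at 23694 loci listed in all 4 H3AcK27 libraries, each with its median set to 0. Hexagons are shaded by the number of loci on a log scale and dotted lines mark 2-fold; the cloud runs from lower left to upper right, with 590 loci past 2-fold in both at the upper right and 1346 at the lower left.

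In the plot of both ratios, the upper left and lower right corners beyond the dotted lines are nearly empty. With TNFα present, the loci that were higher and lower with FSK were thus largely on the same side without TNFα, within a comparison in which the input and the enrichment of the libraries moved along with FSK.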

How the data were processed

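The authors aligned ChIP-seq reads to mm10 and listed regions with HOMER (STAR, HOMER and mm10 are named in the submitters' processing notes; versions are not given in the sources used here). Per the file headers, each deposited H3AcK27 list was built from 500-bp windows required to exceed the input 4-fold at a Poisson p-value of 0.0001, with the input of untreated cells for control and TNFα and that of FSK-treated cells for FSK and FSK with TNFα. The authors gave each region a normalized tag count (a signal, per 10000000 tags), a score by which regions were ranked, a fold over input and a p-value. Nothing in the labels says that the libraries came from separate cultures, and each group is 1 library.

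From these lists, regions were merged into loci by an overlap of at least 1 bp, tags were summed per library, and the ratio was divided by the median over loci with at least 20 normalized tags in the higher library. Start sites came from GENCODE M21, and motifs were searched as exact letters on both strands in 1000 bp at the locus midpoint. Intervals are 95% Wilson intervals for shares and exact binomial intervals for tag ratios, both for counting error only. Named genes were those the study discusses, up to 5 with the highest and 5 with the lowest ratio in each gene list, the 10 promoter and 5 distal loci with the highest and lowest ratios among those with at least 100 normalized tags, and the 5 strongest loci of each single list. Loci and gene lists were chosen with earlier results of these data known. The calculation was tested on simulated data that kept the coordinates of TNFα regions and redrew only their tags. Differences of listed width were thus not part of that test. Alternatives were the ratio as deposited, tags per kb, no minimum, a 1.5-fold cut-off, equal-sized lists, an 8-fold minimum over input, an overlap of 50%, promoters of 2500 bp, regions up to 10 kb and autosomes only. Python 3.11.15, numpy 2.4.6, pandas 2.3.3, scipy 1.17.1, matplotlib 3.10.9 and pysam 0.24.0 were used. The value of 1 gene that the rule named is not reported here.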

Additional observations from a re-analysis of the deposited data

How the results depend on the processing

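Lower loci outnumbered higher loci under every alternative. The order of the promoter shares of loci of only 1 list turned with equal-sized lists and with promoters of 2500 bp (values below). The adipocyte list median (-0.02) was 0.01 with no minimum. The gene list medians moved by less than 1.5-fold, but as deposited those of the NF-κB genes (-0.11), the housekeeping genes (-0.08) and all genes (-0.15) turned negative. The distance of each list from all genes stays the same as deposited by construction. As deposited, 3 CREB genes were 2-fold higher in place of 8. With promoters of 2500 bp, 1 NF-κB gene was 2-fold higher in place of none. The following moved, and beyond what each setting does by construction the cause was not tested. The share of FSK and TNFα regions overlapping TNFα regions was 73.2% with equal-sized lists, 67.8% with an 8-fold minimum over input and 77.0% (76.998) with an overlap of 50%, and the reverse share was 67.6%, 40.8% and 60.8%. The 8-fold minimum raised the median widths to 2641 bp (TNFα) and 2313.5 bp (both agents). Higher and lower loci numbered 681 and 6273 as deposited, 180 and 376 in tags per kb, 3711 and 6596 at 1.5-fold, and 107 and 389 with the 8-fold minimum. Higher loci made up 27.1% of all changed loci, 9.79% as deposited and 41.05% with level-dependent centring, chosen after the data were seen. Of the 1431 higher and 3845 lower loci, 681 and 3845 were kept as deposited, 111 and 333 in tags per kb.

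With promoters of 2500 bp, equal-sized lists and the 8-fold minimum, the promoter share was 9.66%, 8.50% and 10.1% for loci of the combination only, 9.41%, 4.55% and 27.4% for TNFα only, and 35.7%, 33.4% and 65.1% for both. With equal-sized lists, the 8-fold minimum and the 50% overlap, loci of the combination only were listed with FSK in 39.4%, 24.6% and 24.5%, and TNFα-only loci in control cells in 57.2%, 62.9% and 61.9%. The same-direction share in FSK against control was 81.3% for higher and 93.1% for lower loci as deposited, 94.4% and 84.9% in tags per kb, and 85.1% for lower loci at 1.5-fold. With CRTC2 and p65 peaks at least 8-fold over input, tags per kb and the ratio as deposited, CRTC2 shares were 30.1%, 44.4% and 37.3% at higher and 3.02%, 6.91% and 6.998% at lower loci. Those of p65 were 2.59%, 2.78% and 2.496% at higher loci, and 1.92% and 3.99% at lower loci for the first 2 settings. The remaining 76 values moved by less than the set margin. No paired analysis was possible because each group holds 1 library.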
